A study of Homo sapiens with 6 samples.

Results

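Tau, encoded by MAPT, and 9 genes of the kinases that phosphorylate it were measured by RNA sequencing in forebrain organoids grown from the human induced pluripotent stem cell line DYR0100. The 10 genes were taken by symbol from the 18056 genes of the deposited table: MAPT, GSK3A, GSK3B, CDK5, CDK5R1, CDK5R2, MARK1, MARK4, DYRK1A and TTBK1. All 10 had enough reads to be among the 13842 genes tested. Per the labels, the organoids followed a dorsal forebrain protocol, were of wild-type genotype and formed 1 batch. A vehicle was given to 3 samples and 5 µM Aβ42, the aggregation-prone amyloid-β peptide, to the other 3, for 6 days. Replicates are numbered 1 to 3 in each group and are described by the submitters as biologically independent, but all come from 1 cell line.

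Tau binds along microtubules in the axons of neurons. Phosphorylation of its proline-rich and repeat regions loosens that binding, and heavily phosphorylated tau is the material of the neurofibrillary tangles of Alzheimer disease. The kinases fall into 2 broad kinds: proline-directed enzymes (GSK-3, CDK5 and DYRK1A), which act at serines or threonines followed by a proline, and others such as the MARK kinases, which act in the repeats that touch the microtubule. Only transcripts were counted here. Phosphorylation, protein level and the splice forms of tau were not measured.

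Depth was even, with 16465390 to 16742958 estimated counts per library, and the 10 genes together took 2147 to 2272 CPM (counts per library total, with totals adjusted by the TMM method). By their mean correlation over the tested genes, Aβ42 replicate 2 was closer to the 3 vehicle libraries (0.993) than to the other 2 Aβ42 libraries (0.990). Vehicle replicate 2 and Aβ42 replicate 2 also deviated together from their group means (correlation 0.388 over 12186 genes), so values without Aβ42 replicate 2 and with the replicate number as a block are given where they change a call. The summed level of 16 neuron markers was 8272 to 8636 CPM in vehicle and 7732 to 8288 CPM with Aβ42, lowest in Aβ42 replicate 2. The 12 dorsal forebrain markers summed to 2531 to 2594 CPM in vehicle and 2374 to 2501 CPM with Aβ42. The labels give the cell type as an induced pluripotent stem cell, but 8 markers of that state summed to only 1.25 to 2.13 CPM, with 2 of them at 0 in every library. The 12 microglia markers summed to 0.481 to 1.16 CPM, and C1QA, C1QB, C1QC, TREM2 and TYROBP were at 0 counts in all 6 libraries. In the libraries numbered 2 the 8 choroid plexus markers summed to 1019 CPM (vehicle) and 931 CPM (Aβ42), against 404 to 518 CPM in the other 4 libraries. The 12 proliferation markers summed to 869 to 1033 CPM in vehicle and 570.0 to 802 CPM with Aβ42. In bulk organoids, fewer cells of a type and less RNA per cell cannot be told apart.

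By edgeR's quasi-likelihood test, 0% of the 13842 genes had an adjusted p-value under 0.05, and so none of the 10 members did. At an unadjusted p-value under 0.05 there was 1 member that was higher with Aβ42, MARK4, and 1 that was lower, DYRK1A, against 12.4% of all tested genes higher and 11.5% lower. The groups did not overlap for 1 member in the higher direction (MARK4) and 4 in the lower (DYRK1A, MARK1, CDK5R1 and TTBK1). Among all genes, 13.6% and 13.4% had such non-overlapping groups in the higher and lower directions. The median log2 fold change of the 10 members was -0.05, beside 0.0032 over all genes. With the replicate block 1 member was called, MARK4, as higher, where 7.12% of all genes were called higher and 7.05% lower. Without Aβ42 replicate 2, MARK4 was called higher and DYRK1A lower, where 11.5% and 11.6% of all genes were called. That fit leaves out the Aβ42 library most like vehicle, so its calls are not independent support. The replicate block was also taken from these data and not from the labels, so the same limit holds for its call of MARK4. Leaving out any other single library gave 0 calls over all genes. With 10 members, 1 gene is 10% of the list, so the counts of 1 are near the shares of all genes. The 4 members lower without overlap are a larger share than that of all genes, and no test of that count was made.

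**Figure D1:**
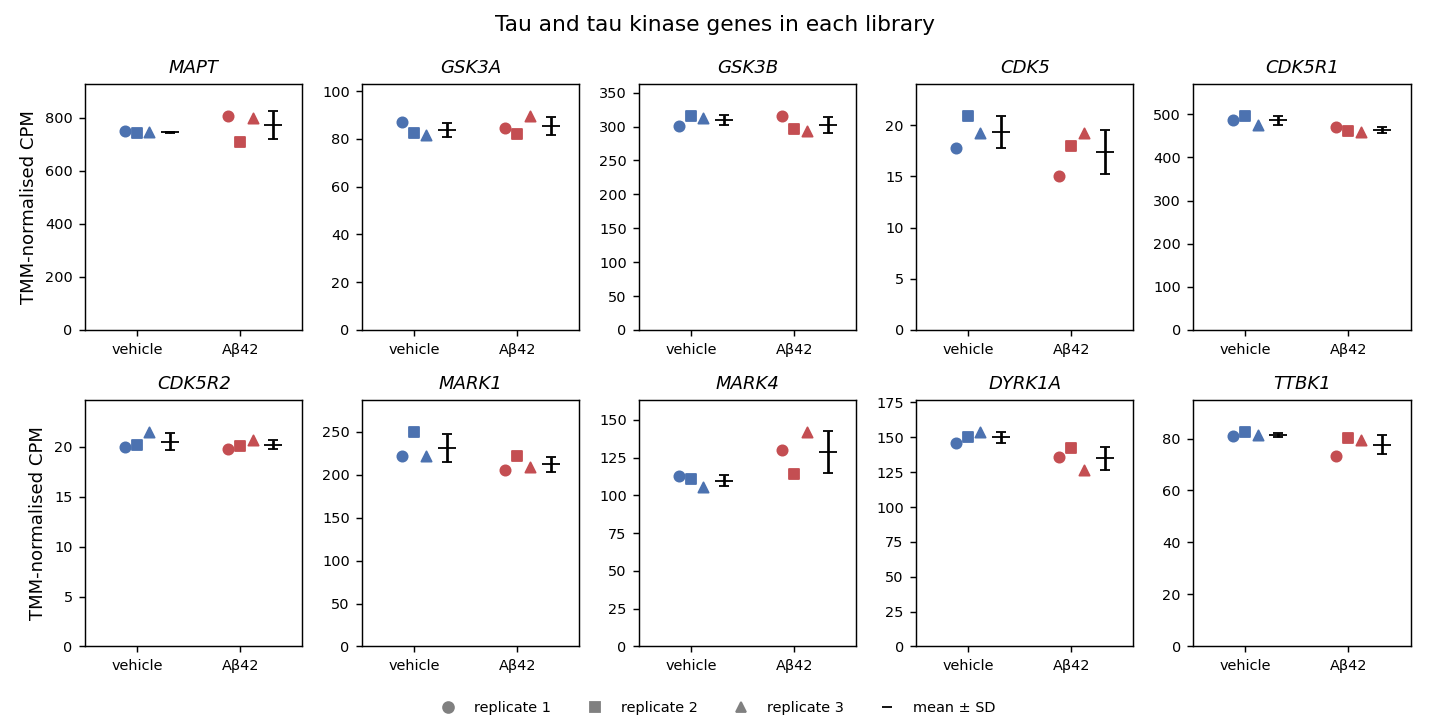
TMM-normalised CPM of each of the 10 genes in the 3 vehicle (blue) and 3 Aβ42 (red) libraries; the marker shape gives the replicate number and the black bar the mean ± SD. MARK4 lies higher with Aβ42, by the least in replicate 2, and DYRK1A lies lower, while MAPT, the GSK3 genes, CDK5 and CDK5R2 overlap between groups.

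On GRCh38, MAPT is at chr17:45894554-46028334 on the forward strand, and in the GENCODE 29 annotation its span overlaps 5 other genes, among them the antisense transcript MAPT-AS1 and the coding gene STH inside it. MARK4 is at chr19:45251271-45305284 on the forward strand, and its GENCODE 29 span is shared in part with 7 protein-coding genes. CDK5 (chr7:151053815-151057897, reverse strand) overlaps SLC4A2 on the opposite strand. CDK5R1 and TTBK1 overlap no other annotated gene. Libraries were stranded per the labels' protocols, but whether the counting used strand is not given in the sources used here, so reads of opposite-strand genes may be mixed.

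Promoter entries in the RefSeq-based table (GRCh38.p14) matched 8 of the 10 genes, 7 of them with a single start site, and none was listed for MAPT and MARK1. The 250 bases before the start are shown for MARK4, the member called with the block, and for CDK5R1, the most abundant member after MAPT, whose values lay the other way. Both are given 5′ to 3′ on the gene's strand, with capitals marking the GC box GGGCGG and the cAMP response element core TGACG on either strand. The third motif searched, the TATA box TATAAA, was in neither. The windows are chr19:45251021-45251270 for MARK4 and chr17:32486743-32486992 for CDK5R1, both on the forward strand.
MARK4: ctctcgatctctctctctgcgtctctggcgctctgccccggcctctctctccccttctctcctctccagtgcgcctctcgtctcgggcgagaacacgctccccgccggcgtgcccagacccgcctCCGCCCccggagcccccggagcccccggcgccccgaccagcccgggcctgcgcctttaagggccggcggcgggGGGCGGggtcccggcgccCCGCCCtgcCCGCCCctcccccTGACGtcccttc
CDK5R1: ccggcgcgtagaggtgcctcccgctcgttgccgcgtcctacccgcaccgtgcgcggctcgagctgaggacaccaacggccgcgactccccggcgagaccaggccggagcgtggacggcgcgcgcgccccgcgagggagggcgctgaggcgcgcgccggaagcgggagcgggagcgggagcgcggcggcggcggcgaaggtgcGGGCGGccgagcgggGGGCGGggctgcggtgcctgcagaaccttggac
The MARK4 window held 4 GC boxes and 1 TGACG core (77.2% G or C), and the CDK5R1 window 2 GC boxes and no TGACG core (79.6%). Each of the 7 windows held at least 1 GC box and none a TATA box. Of 7799 tested genes with a single start site, 69.4% had a GC box in the same window, 30.6% the TGACG core and 5.24% a TATA box. These matches describe letters and not bound sites.

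MAPT itself (Entrez gene ID 4137) was at 748, 743 and 744 CPM in vehicle replicates 1 to 3 and at 807, 710.0 and 797 CPM in Aβ42 replicates 1 to 3. The vehicle libraries lay close together and inside the range of the Aβ42 libraries, of which replicates 1 and 3 were above and replicate 2 below every vehicle value. The log2 fold change was 0.05 ± 0.05 (SE, adjusted p-value 0.599 by edgeR), which does not pass. It was 0.11 without Aβ42 replicate 2 (adjusted p-value 0.0954). On the deposited per-length scale it was 0.0035 in limma on log2(TPM + 1) (adjusted p-value 0.974), where the median over all genes was -0.0401. The deposited MAPT counts were not all whole numbers, unlike those of the other 9 genes, and how its reads were divided is not given in the sources used here. The lowest MAPT value and the lowest summed neuron marker level were both in Aβ42 replicate 2, and the part of that level in the MAPT value was not tested.

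The 3 genes whose log2 CPM followed MAPT most closely over the 6 libraries, of 12176 with a mean of at least 50 counts, were GLRB (Pearson 0.996, Spearman 0.943), CIBAR1 (0.990, 0.714) and CS (0.989, 0.886). GLRB encodes the β subunit of the glycine receptor, and CS is the citrate synthase of mitochondria. A correlation above 0.9 was reached by 295 genes. The 6 points share their group labels and library scaling, so these values describe likeness only. GLRB was at 34.3, 34.2 and 34.1 CPM in vehicle and 36.4, 33.2 and 36.1 CPM with Aβ42, with the same pattern of 2 high libraries and a low Aβ42 replicate 2 as MAPT.

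Glycogen synthase kinase 3 is the proline-directed kinase that also turns over β-catenin in Wnt signalling, and it is made from a pair of genes. GSK3A (2931) was at 86.9, 82.6 and 81.7 CPM in vehicle and at 84.4, 82.1 and 89.7 CPM with Aβ42. GSK3B (2932) was at 301, 316 and 312 CPM in vehicle and at 316, 297 and 293 CPM with Aβ42. Both overlapped between groups, with log2 fold changes of 0.03 ± 0.05 for GSK3A (adjusted p-value 0.775 by edgeR) and -0.04 ± 0.05 for GSK3B (0.667). The GSK3B value was -0.02 without Aβ42 replicate 3 and -0.07 without Aβ42 replicate 1. The sign for GSK3A turned on the TPM scale (-0.02) and without Aβ42 replicate 3 (-0.0082). On the log2(TPM + 1) scale the median over all genes was itself -0.0401. Per length the paralogs were nearly equal: the GSK3B to GSK3A ratio of TPM was 0.943 ± 0.0551 in vehicle and 0.907 ± 0.0655 with Aβ42 (mean ± SD, n = 3 each), and the 2 ranges overlapped.

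CDK5 is a cyclin-dependent kinase of postmitotic neurons that is active only when bound to p35, encoded by CDK5R1, or to p39, encoded by CDK5R2. CDK5 (1020) was at 17.8, 20.9 and 19.2 CPM in vehicle and at 14.99, 17.9 and 19.2 CPM with Aβ42. It had only 246 to 344 counts per library, and counting error alone was 6.38% in the shallowest. Its groups overlapped, and the log2 fold change of -0.15 ± 0.11 did not pass (adjusted p-value 0.404 by edgeR). It was -0.05 without Aβ42 replicate 1 and -0.23 without Aβ42 replicate 3.

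CDK5R1 (8851) was at 487, 497 and 476 CPM in vehicle and at 470.4, 462 and 458 CPM with Aβ42. Every Aβ42 value was below every vehicle value, and the log2 fold change was -0.07 ± 0.04 (adjusted p-value 0.344 by edgeR). CDK5R2 (8941) was at 19.9, 20.2 and 21.5 CPM in vehicle and at 19.8, 20.1 and 20.7 CPM with Aβ42. The CDK5R2 values overlapped, with a log2 fold change of -0.02 ± 0.08 (0.878), which was 0.01 without vehicle replicate 3. Per length, CDK5R1 exceeded CDK5R2 by 14.5 ± 0.847 times in vehicle and 14.03 ± 0.476 times with Aβ42 (n = 3 each). CDK5R1 also exceeded the kinase it activates, with a CDK5R1 to CDK5 ratio of TPM of 5.596 ± 0.430 in vehicle and 6.06 ± 0.889 with Aβ42. Neither ratio separated the groups.

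The MARK kinases (microtubule affinity-regulating kinases) phosphorylate the repeats of tau and detach it from microtubules. MARK4 (57787) was at 113, 111 and 106 CPM in vehicle and at 130.2, 114 and 142 CPM with Aβ42. All Aβ42 values were above the vehicle values, with Aβ42 replicate 2 the nearest to them. The log2 fold change was 0.23 ± 0.07 (unadjusted p-value 0.0094, adjusted p-value 0.112 by edgeR), or 17.3% higher. With the replicate block it was 0.23 with an adjusted p-value of 0.0313, and MARK4 was called. Without Aβ42 replicate 2 it was 0.31 (adjusted p-value 0.00179), and without Aβ42 replicate 3 it was 0.155 (0.367). On the TPM scale the groups overlapped, Aβ42 replicate 2 (74.7 TPM) lying below vehicle replicates 1 and 2 (75.5 and 76.2 TPM). The log2 fold change in limma on log2(TPM + 1) was 0.16 (adjusted p-value 0.213), where the median over all genes was -0.0401.

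Of the protein-coding genes annotated within the MARK4 span, 5 were tested: PPP1R37, BLOC1S3, GEMIN7, TRAPPC6A and NKPD1. Their means were between 1.05 and 26.4 CPM in vehicle, all below that of MARK4 (109.7 CPM). Their log2 fold changes ran from -0.31 for GEMIN7 to 0.61 for NKPD1, and all 5 overlapped between groups, with adjusted p-values of 0.240 to 0.706 by edgeR.

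MARK1 (4139) was at 222, 249.6 and 222 CPM in vehicle and at 206, 222 and 209 CPM with Aβ42. The groups barely separated, with Aβ42 replicate 2 at 221.98 CPM and vehicle replicate 1 at 222.03 CPM. The log2 fold change was -0.12 ± 0.06 (unadjusted p-value 0.0546, adjusted p-value 0.218 by edgeR), and it was -0.07 without vehicle replicate 2. Within each library the MARK1 to MARK4 ratio of TPM took the values 1.64, 1.87 and 1.72 in the vehicle group and 1.31, 1.62 and 1.22 in the Aβ42 group. All 3 Aβ42 ratios were below the vehicle ratios, a log2 difference of -0.34, which lay between -0.46 and -0.26 when each library was left out in turn. The nearest ratios were 1.62 with Aβ42 and 1.64 in vehicle. As CPM, MARK1 already lay lower and MARK4 higher without overlap, so this ratio restates those results and adds no support. No other ratio of the 4 computed separated the groups.

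DYRK1A, a dual-specificity kinase encoded on chromosome 21 that phosphorylates tau and primes it for GSK-3, had the lowest p-value among the members that were lower. DYRK1A (1859) was at 146, 150.1 and 154 CPM in vehicle and at 136, 142 and 126 CPM with Aβ42. All Aβ42 values were below the vehicle values, and the log2 fold change was -0.15 ± 0.05 (unadjusted p-value 0.0152, adjusted p-value 0.128 by edgeR). The block gave an adjusted p-value of 0.0690. Leaving out Aβ42 replicate 2 gave a log2 fold change of -0.20 (adjusted p-value 0.0148 by edgeR), and DYRK1A was then called. It was -0.11 without Aβ42 replicate 3 (unadjusted p-value 0.0687, adjusted p-value 0.399 by edgeR). Without vehicle replicate 3 it was -0.14 (unadjusted p-value 0.0635, adjusted p-value 0.306 by edgeR). TTBK1 (84630), a tau-tubulin kinase expressed mainly in neurons, was at 80.9, 82.4 and 81.3 CPM in vehicle and at 73.4, 80.1 and 79.5 CPM with Aβ42. The TTBK1 groups did not overlap, but the log2 fold change of -0.07 ± 0.05 did not pass (adjusted p-value 0.432) and was -0.03 without Aβ42 replicate 1.

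**Figure D2:**
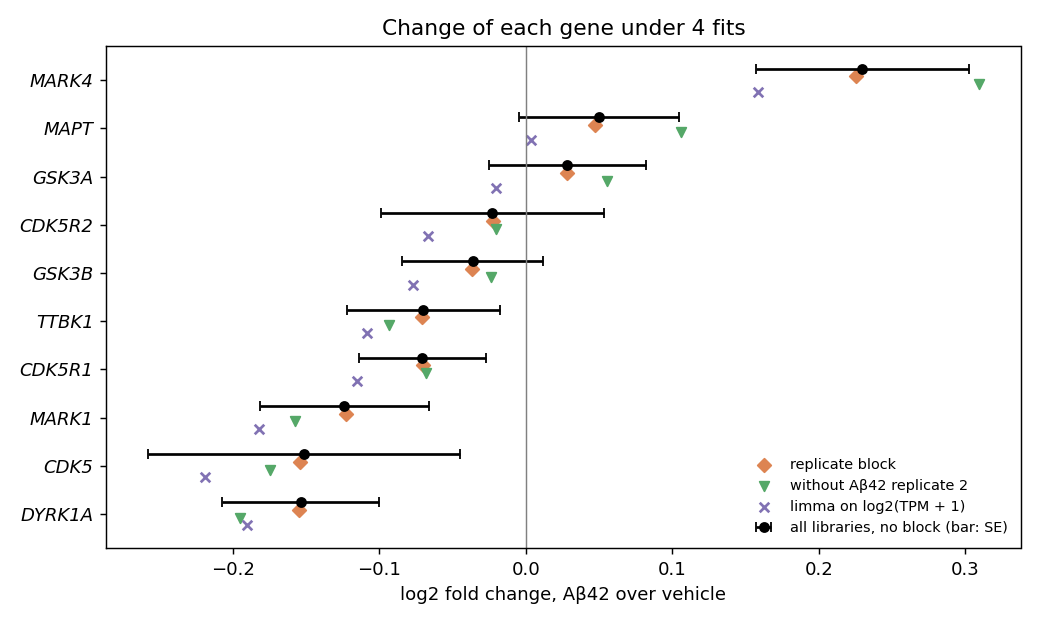
Log2 fold change of each gene, Aβ42 over vehicle, in the comparison of all 6 libraries without a block (black, bar SE), with the replicate block, without Aβ42 replicate 2 and on the log2(TPM + 1) scale. MARK4 is the highest (0.23) and DYRK1A the lowest (-0.15) without the block. The TPM values lie to the left of the black values for all 10 genes. The median over all genes was -0.0401 on that TPM scale and 0.00322 without the block.

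Levels of different genes were compared only as TPM, which is scaled by gene length. In order of the mean over the 6 libraries, MAPT was at 355 TPM, CDK5R1 at 319.9, MARK1 at 122, GSK3A at 108, GSK3B at 99.7, MARK4 at 79.2, DYRK1A at 70.9, CDK5 at 55.5, TTBK1 at 31.0 and CDK5R2 at 22.4. The ranges of neighbouring genes overlapped for MAPT and CDK5R1, for MARK1, GSK3A and GSK3B in turn, and for MARK4, DYRK1A and CDK5 in turn. Within a library the order held in all 6 for each neighbouring pair, apart from MARK4 and DYRK1A, where MARK4 was above in 4 of 6. In vehicle, MARK4 was at 72.3 to 76.2 TPM and DYRK1A at 71.7 to 78.1 TPM. With Aβ42, MARK4 was at 74.7 to 91.4 TPM and DYRK1A at 61.6 to 70.4 TPM, so the 2 genes overlapped in vehicle and did not overlap with Aβ42. They are the members of lowest p-value in each direction, so this restates their fold changes and is no separate result. Neither fold change passed (adjusted p-values 0.112 for MARK4 and 0.128 for DYRK1A by edgeR).

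**Figure D3:**
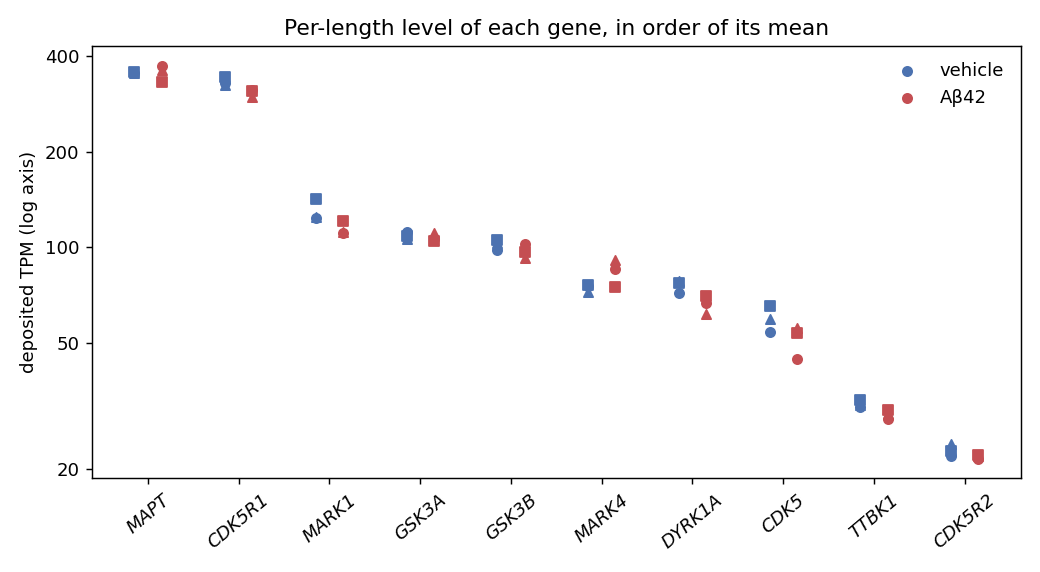
Deposited TPM (log axis) of each gene in each library, vehicle in blue and Aβ42 in red, marker shape as replicate number (circle 1, square 2, triangle 3), in order of the mean. MAPT and CDK5R1 lie at 298 TPM or above and CDK5R2 between 21.6 and 24.1 TPM, a spread between genes that is wider than any difference between groups.

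Other genes around tau were read from 8 lists, with 156 tested genes in all, none of which passed in the fit without a block, while 42 were under 0.05 before adjustment (3302 of the 13842 genes were). With the replicate block 29 were called, 11 higher and 18 lower, beside 7.12% of all genes higher and 7.05% lower. The lists were chosen with earlier results of these data known, so their shares of calls are descriptions and not independent support. Each gene's values below come from the fit without a block, and the call from the block is named. Genes described below as rising, falling or called are so by the block, unless another fit is named. The labels give no such pairing. The block was taken from correlations between same-numbered libraries in these data, and that pairing is weak. Its calls are therefore not independent support for a difference between the groups. Genes beyond those set by the naming rule are named because they were called with the block, a choice made after their values were seen.

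Of 29 other tau kinases tested, 1 was higher and 4 were lower at an unadjusted p-value under 0.05 (median log2 fold change -0.02), where 12.4% and 11.5% of all genes were. CDK1, the mitotic cyclin-dependent kinase, fell with the block, from 52.2 ± 3.90 to 38.3 ± 6.49 CPM (log2 fold change -0.45 ± 0.11, adjusted p-value 0.000693 with the block by edgeR). The summed proliferation markers, CDK1 among them, were lower in the same libraries, and their part in the CDK1 value was not tested. MAPK10, the neuronal JNK kinase JNK3, also fell with the block (-0.21 ± 0.06, adjusted p-value 0.0245 by edgeR). MAPK3, or ERK1, was at 35.5 ± 0.307 and 39.5 ± 3.60 CPM and was not called (0.175).

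Among 26 tau phosphatases and regulators of protein phosphatase 2A, the main tau phosphatase, 2 were higher and 3 lower at an unadjusted p-value under 0.05 (median log2 fold change 0.0048), beside the same 12.4% and 11.5% of all genes. With the block 1 of the 26 was called higher and 3 lower, beside 7.12% and 7.05%. CIP2A, an inhibitor of that phosphatase found in dividing cells, was at 19.5, 24.3 and 22.3 CPM in vehicle and 14.6, 18.4 and 13.4 CPM with Aβ42. The part of the proliferation markers in the CIP2A value was not tested. CIP2A fell with the block (-0.51 ± 0.13, adjusted p-value 0.00186 by edgeR), as did the regulatory subunit PPP2R5E (-0.16 ± 0.05, 0.0424) and the activator PTPA (-0.18 ± 0.06, 0.0389). The regulatory subunit PPP2R2A rose (0.18 ± 0.06, 0.0440), and PPP2R5A (0.32 ± 0.11, 0.0519) was not called.

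In the lists of regulators and substrates of the members, 3 genes were called with the block, 2 higher and 1 lower, where 7.12% of all genes were called higher and 7.05% lower. Of 18 GSK3 regulators, DVL1, a Wnt signal transducer, rose with the block (0.20 ± 0.06, adjusted p-value 0.0423 by edgeR) and PIK3R1, a regulatory subunit of phosphoinositide 3-kinase, fell (-0.18 ± 0.06, 0.0435). Of 17 CDK5 regulators and substrates only MEF2D, a neuronal transcription factor, was called (0.17 ± 0.05, 0.0435), while CAPN1, one of the calpains that cleave p35 to p25, had -0.20 ± 0.08 (0.0690). No gene of 15 MARK and DYRK1A regulators and substrates was called with the block. In that list YWHAB, a 14-3-3 protein, had the lowest p-value (-0.12 ± 0.04, 0.106), and NFATC1 was at 0.34 ± 0.19 (0.232).

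Of 19 genes of tau turnover and modification 5 were called higher and 1 lower with the block, or 26.3% higher where 7.12% of all genes were. SQSTM1, the autophagy receptor p62, was at 181, 174 and 167 CPM in vehicle and 199, 200.01 and 228 CPM with Aβ42 (0.26 ± 0.06, adjusted p-value 0.00859 with the block by edgeR). FKBP4, a cochaperone of HSP90, went from 180.3 ± 9.70 to 214 ± 13.4 CPM (0.25 ± 0.06, 0.00417). The others called higher were HSP90AB1 (0.16), BAG3 (0.25) and OGA (0.17), the last the enzyme that removes O-GlcNAc from proteins. EP300, an acetyltransferase that acts on tau, fell (-0.22 ± 0.05, 0.0101), and BAG2, at 6.19 ± 0.485 and 5.35 ± 0.645 CPM, was not called (0.384). Without Aβ42 replicate 2 the list had 5 genes called higher and 1 lower (26.3% and 5.26%), where 11.5% and 11.6% of all genes were. That fit leaves out the Aβ42 library most like vehicle, so its calls are not independent support.

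Of the 8 lists, that of the splicing factors that act on MAPT exon choice had the most calls in one direction. Of 17 tested, 12 were lower and 5 higher in log2 fold change (median -0.11), where 49.3% of all genes were lower (median 0.0032). At an unadjusted p-value under 0.05 by edgeR, 8 were lower, where 11.5% of all genes were. Under the block 7 were called lower and 1 higher, 41.2% lower against 7.05% of all genes. SRSF6 was at 203, 213 and 212 CPM in vehicle and 158, 188 and 148 CPM with Aβ42 (-0.35 ± 0.08, adjusted p-value 0.00169 with the block by edgeR). Every Aβ42 value was below the vehicle values, with Aβ42 replicate 2 nearest to them. The others called lower were SRSF2 (-0.32), SRSF7 (-0.29), SRSF1 (-0.28), MBNL1 (-0.23), TRA2A (-0.22) and TRA2B (-0.20), and MBNL2 was called higher (0.30 ± 0.10, 0.0197). Without Aβ42 replicate 2, 9 were called lower, where 11.6% of all genes were. Summed proliferation markers followed the same order as SRSF6 within the Aβ42 group, at 597 and 570.0 CPM in Aβ42 replicates 1 and 3 and 802 CPM in Aβ42 replicate 2. SRSF1, SRSF2 and MBNL1 had that order too. TRA2A, TRA2B and SRSF7 were also highest in Aβ42 replicate 2 of that group, but lowest in replicate 1. Of the 12 proliferation markers, 10 were called lower with the block (83.3%, against 7.05% of all genes). Without Aβ42 replicate 2, 11 of them were (91.7%, against 11.6%). The part of proliferation in the splicing factor values was not tested. MAPT exons were not resolved in the deposited table.

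Of 17 microtubule-associated proteins and related genes, 4 were called lower and 1 higher with the block, 23.5% lower against 7.05% of all genes (median log2 fold change without the block -0.05). MAP6, which stabilises cold-resistant microtubules, was at 233, 262 and 246 CPM in vehicle and 203, 206 and 199 CPM with Aβ42 (-0.29 ± 0.05, adjusted p-value 0.00170 with the block by edgeR). MAP2, the dendritic relative of tau, went from 1879 ± 65.9 to 1660 ± 36.4 CPM (-0.18 ± 0.05, 0.0228), and MAP1B from 3688 ± 236 to 3137 ± 192 CPM (-0.23 ± 0.06, 0.00484). MAP7D2 was also called lower (-0.46) and STMN4 higher (0.17), while the tubulin cofactor TBCA (0.17 ± 0.06, 0.0690) was not called. MAPT, with a log2 fold change of 0.05, was not called under the block (adjusted p-value 0.569 by edgeR), and the difference between MAPT and MAP2 or MAP1B was not tested. Neuron markers summed to 8272 to 8636 CPM in vehicle and 7732 to 8288 CPM with Aβ42. With the block, 18.8% of the 16 neuron markers and 25% of the 12 dorsal forebrain markers were called lower, and 0 higher. These shares are near that of the microtubule list. The part of the neuron markers in these values was not tested.

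**Figure D4:**
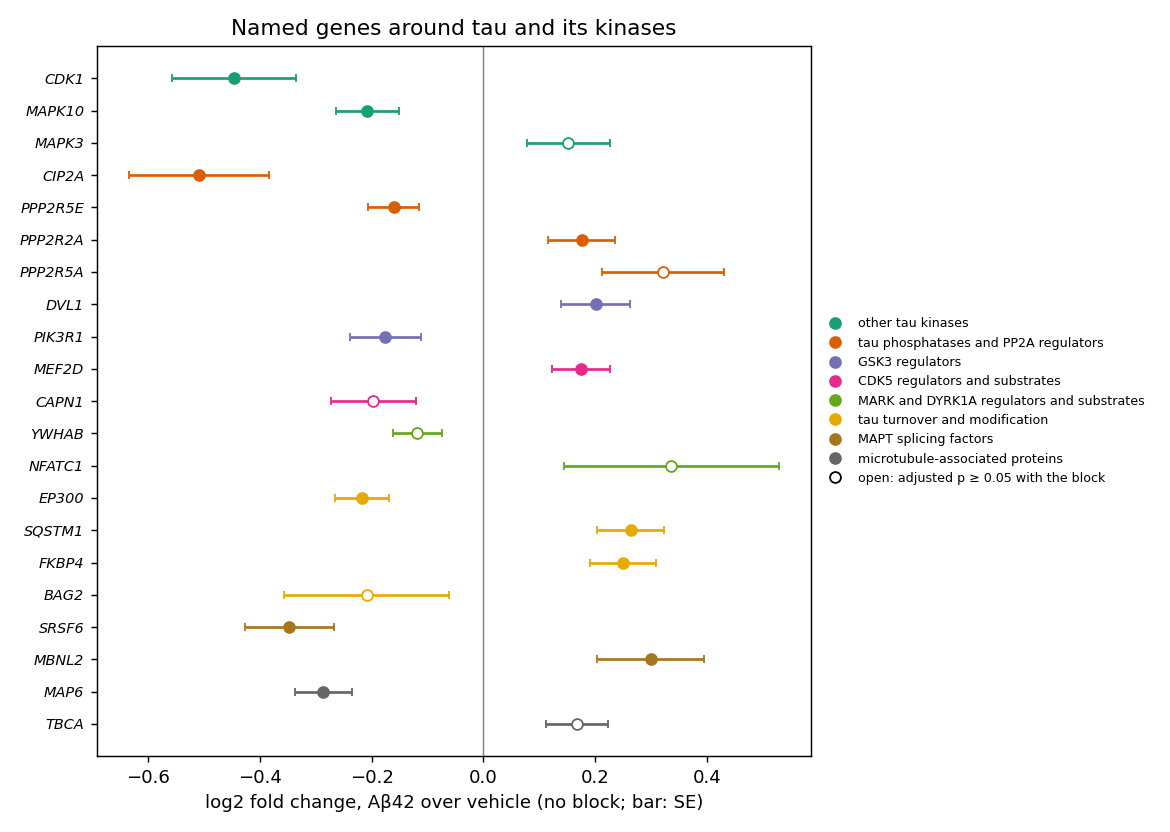
Log2 fold change, Aβ42 over vehicle, without a block (bar SE) of the genes named in the text by rule from the 8 lists, coloured by list. Filled points had an adjusted p-value under 0.05 with the replicate block, a pairing taken from the data, and open points did not. No gene passed without the block. CIP2A (-0.51) and CDK1 (-0.45) are the lowest.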

How the data were processed

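The authors deposited 1 table with an estimated count and a TPM value for each gene and library. Per the submitters' processing notes, GRCh38, STAR 2.7.11b and featureCounts 2.0.6 were used; their settings and the annotation are not given in the sources used here. The deposited counts were whole numbers for 86.9% to 87.5% of genes, so these estimated counts were rounded. The deposited TPM values have the same sum in each library and were used to compare genes.

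Genes were kept by filterByExpr, scaled by TMM and compared with edgeR 4.0.16 (quasi-likelihood, robust, no block, two-sided) in R 4.3.3, with Benjamini-Hochberg adjustment over all 13842 genes and a threshold of 0.05. Each SE was derived from the fold change and its F statistic (log2 change over root F). Alternatives used limma 3.58.1 (also on log2(TPM + 1) and log2(TPM + 0.1)) and DESeq2 1.42.0. Scripts were tested on simulated data. Libraries differed by 3.16 to 21.1 chi-square per gene, above the value of 1 for duplicates.

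Same-numbered libraries correlated in their deviations from the group means (0.181, 0.388 and 0.129), all above 0.1, so the replicate number was taken as a pairing that comes from the data, not the labels. The pairing is weak: vehicle 3 with Aβ42 1 (0.177) and vehicle 1 with Aβ42 3 (0.154) were also above 0.1, and only number 2 stood apart.

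The members and gene lists were chosen with earlier results of these data known. All members were named, and from each list the 2 genes (1 in lists under 20 genes) of lowest p-value among those higher and among those lower, plus the 3 genes most like MAPT. A gene that this rule names is not reported here.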

Additional observations from a re-analysis of the deposited data

How the results depend on the processing

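Over all genes 0 were called without a block (3302 at an unadjusted p-value under 0.05). The count became 360 with no filter on low counts, 804 by DESeq2, 1962 with the replicate block and 2316 with the libraries numbered 2 left out of both groups, an alternative chosen after seeing the data. Across the fits that left out 1 library the count ran from 0 to 3224, the latter without Aβ42 replicate 2. The members called numbered 1 with the replicate block, 2 with the libraries numbered 2 left out, and 0 to 2 when each library was left out. Members with an unadjusted p-value under 0.05 (2) became 4 on both TPM scales, all lower, and 1 to 4 across the single-library fits. By limma on log2(TPM + 1) and log2(TPM + 0.1), 3301 and 3287 of the 13842 genes were under 0.05, higher and lower together. Their split by direction was not counted on these scales, so the 4 lower members have no matching share over all genes. The median log2 fold change over all genes was -0.0401 and -0.0434 on these scales, so the direction of the 4 is read against that shift. Among the 156 pathway genes the calls (0, with 42 unadjusted) became 6 with no filter, 15 by DESeq2, 29 with the replicate block, 29 with the libraries numbered 2 left out and 0 to 43 across the single-library fits. The fits with no filter or with libraries left out hold other genes or libraries; DESeq2 and the block used the same ones with another test or design. The cause was not tested beyond this.

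Of the members, 8 kept their direction in all 17 alternatives. GSK3A reversed on the log2(TPM + 1) scale (-0.0205) and the log2(TPM + 0.1) scale (-0.0207), and ran from -0.00816 to 0.0565 across the single-library fits. CDK5R2 ran from -0.0429 to 0.0114 there. The log2 difference of the CDK5R1 to CDK5 ratio ran from -0.00737 to 0.192 and that of GSK3B to GSK3A from -0.107 to 0.00181. The median over all genes was -0.0401 on the log2(TPM + 1) scale, against 0.00322 on the count scale. The replicate block changed no member's call other than that of MARK4. Depth was lowest for CDK5, with 246 counts in 1 library.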

Other observations

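The deposited count divided by the deposited TPM gives the gene length that the TPM used, up to a constant per library. Taken relative to each library's median (11455 genes at or above 5 TPM on average), this length differed between groups by 0.021 on the log2 scale for MARK4, 0.023 for CDK5, 0.018 for MARK1 and 0.0053 for GSK3A. For MAPT the difference was 0.00054. Over all those genes the 5th and 95th percentiles were -0.043 and 0.051, so no member lay outside them.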
